A study of Homo sapiens with 8 samples.

Results

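The nuclear-encoded subunits of respiratory complex I were taken from the count table by name, as protein-coding rows whose symbol matches NDUF followed by A, B, C, S or V and a number. The rule found 39 genes of 58735, of which 37 had enough counts to be tested among 17413 genes; NDUFA7 and the readthrough gene NDUFC2-KCTD14 did not. By the place of the protein in the complex, 10 members belong to the NADH-oxidising (N) module at the tip of the matrix arm, 6 to the quinone-reducing (Q) module at its base, 9 to the near part of the membrane arm and 11 to its far part. The other 3 carry the family name without being subunits in the textbook structure. NDUFA4 is now placed in complex IV, NDUFA4L2 is its paralogue, and NDUFC2-KCTD14 is a transcript that runs from NDUFC2 into the next gene. NDUFAB1, the mitochondrial acyl carrier protein and also a subunit, does not match the name pattern and was counted with the assembly factors.

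Complex I passes electrons from NADH to ubiquinone and pumps protons across the inner mitochondrial membrane. Its catalytic core consists of nuclear-encoded proteins in the matrix arm and of proton-pumping subunits encoded in mitochondrial DNA. Most, but not all, of these matrix-arm proteins hold iron-sulphur clusters or flavin. Around the core lie accessory subunits that hold the arms together and are needed for assembly. The complex is a known site of superoxide formation, and its iron-sulphur clusters are sensitive to oxidants.

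RNA was sequenced from SV-HUC1, an established line grown from normal human urothelium and made immortal by SV40, so both groups carry viral genes. In the glucose oxidase group, 4 cultures were kept for 24 h with 20 mU per ml of this enzyme, which makes hydrogen peroxide from glucose. The control group is 4 untreated cultures of the same line. No culture with peroxide added directly or with inactive enzyme was among the libraries, and all come from a single line. The comparison asks how transcript levels differ between cultures with glucose oxidase and without it. Peroxide levels in the cultures are not given.

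Total counts per library ran from 21437267 to 27183692 in treated libraries and from 21653952 to 23543702 in controls. Libraries with the same replicate number deviated together, and libraries 1 and 2 of both groups also stood apart from libraries 3 and 4, a division that the labels do not give. Urothelial identity was visible, with 13 of 17 urothelial markers at 1 CPM (counts scaled to library size, TMM-normalised) or more in every library. The umbrella-cell markers UPK1A, UPK3A and KRT20 were at or near 0, but the related UPK1B and UPK2 were not. UPK1B was at 56.9 to 108.8 CPM in treated and 54.1 to 186.8 CPM in control libraries. UPK2 was at 4.67 to 10.49 CPM in treated and 6.42 to 11.56 CPM in control libraries. TP63 was low, at 0.579 to 1.47 CPM in treated and 0.0481 to 1.10 CPM in control libraries. The summed urothelial markers ran from 4672 to 5459 CPM in treated libraries and from 6088 to 9341 CPM in controls, so this sum differed between the groups, and its part in the results was not tested. Fibroblast markers summed to 15.8 to 27.0 CPM in treated and 17.02 to 26.8 CPM in control libraries, nearly all of it COL1A1. Endothelial markers reached 5.67 CPM in treated and 4.81 CPM in control libraries, and leukocyte markers 0.404 CPM in treated and 0.192 CPM in control libraries.

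The members took 0.255, 0.193, 0.305 and 0.329% of all counts in treated libraries 1 to 4, against 0.338, 0.268, 0.428 and 0.363% in control libraries 1 to 4. The share was smaller in the treated library of every pair, but treated libraries 3 and 4 lay above control 2 and treated 4 came close to control 1, so the groups overlap. Fitted with the group as the only term, no member passed: 0 of 37 were called at an adjusted p below 0.05 in edgeR's quasi-likelihood test, with member adjusted p-values from 0.658 to 0.970 and 3 members at an unadjusted p below 0.05. The background in that fit was also 0.0%, since none of the 17413 genes passed in edgeR, where the smallest adjusted p was 0.257 and an unadjusted p below 0.05 was reached by 1284 genes. No member was called by DESeq2 without the block either, which called 39 genes lower and 35 higher over the table. With the replicate number as a block, 16 members were lower, 0 were higher and 21 were not called, where the background over all tested genes was 6.97% lower and 7.51% higher. DESeq2 with the block called 17 lower and 0 higher, against backgrounds of 8.69% and 8.09% of the 14965 genes with an adjusted p. In what follows "fell" is used only of these 16 genes in the blocked edgeR fit, and every log2 change is treated minus control with its SE from that fit unless another is named (4 libraries in each group). In bulk RNA, fewer cells that hold a transcript and less of it per cell cannot be told apart.

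The median log2 change of the 37 members was -0.42 with the block, against -0.01 over all tested genes, and -0.45 without it, against -0.03. A change below 0 was fitted for 36 members, where 50.7% of all tested genes were below 0. The exception was NDUFV2. Scaling by total counts moved the median of all genes to 0.10; on that scale NDUFS1, NDUFV1, NDUFV3 and NDUFA13 also came out above 0, and 14 members were called lower and 0 higher against backgrounds of 3.07% and 9.62%. The pair medians of the members were -0.42, -0.33, -0.73 and -0.25 for replicates 1 to 4. These differences depend on the scaling: control 3 had the lowest TMM factor of all libraries, 0.768, against 0.953 in treated 3. In 21 members the treated library was the lower one in all 4 pairs, against 17.1% of all genes, and in 1 member, NDUFV2, it was the higher one in all 4 pairs, against 16.9%. All 16 genes that fell were lower in all 4 pairs. The blocked fit that called them rests on these same pair differences, so this is not separate support. No member had all treated libraries below all controls, where 2.60% of genes did, or above them, where 2.42% did. The drops were modest, with the largest at 1.80-fold.

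Left out in turn, the pairs gave 15, 16, 10 and 16 members lower without replicates 1 to 4, where 4.17, 3.71, 2.85 and 5.12% of all tested genes were lower. Members and all genes thus both had their fewest calls without replicate 3, where the members' median was -0.27. Of the 16 genes, 9 were called in all 4 of these fits, and NDUFB11, NDUFB2, NDUFB5, NDUFB8, NDUFC1 and NDUFS3 were not called without replicate 3. These fits share most of their libraries with the fit that called the 16. The matching share among all genes called lower is not given here. Without the block, the median was -0.26 when control 3 was left out. When the block was replaced by a set term, which only tells replicates 1 and 2 from 3 and 4, 9 members were lower and 0 higher, against backgrounds of 3.07% and 3.72%. These were NDUFA2, NDUFA5, NDUFB1, NDUFB3, NDUFB5, NDUFB6, NDUFB8, NDUFC2 and NDUFS5, all of them among the 16.

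**Figure D1:**
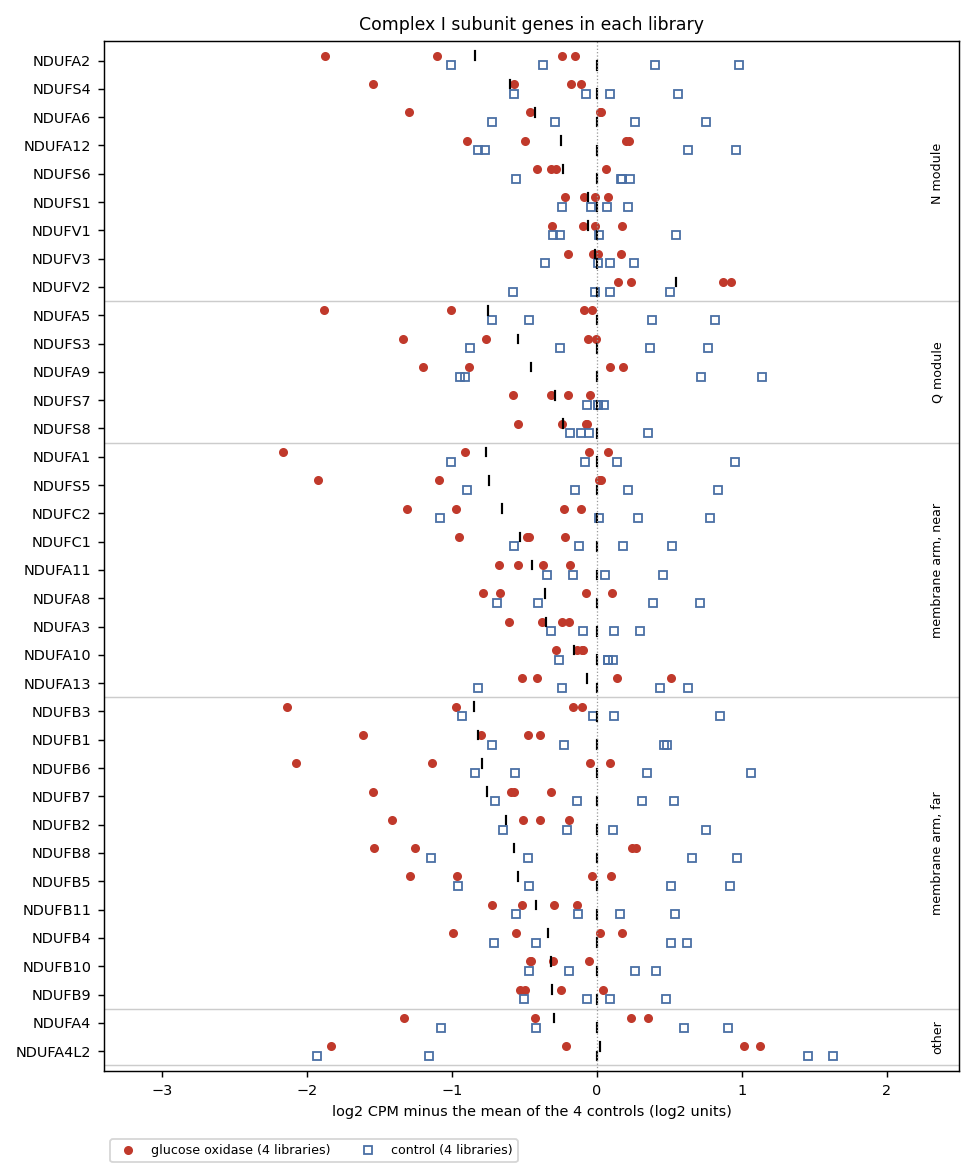
Level of 36 tested subunit genes in every library, as log2 CPM relative to the mean of the 4 controls (x axis), with genes down the page by module. Red circles are the 4 treated libraries, blue squares the 4 controls and black ticks the mean of each group; the groups overlap in every gene, and most red points of the far membrane arm lie left of 0.

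**Figure D2:**
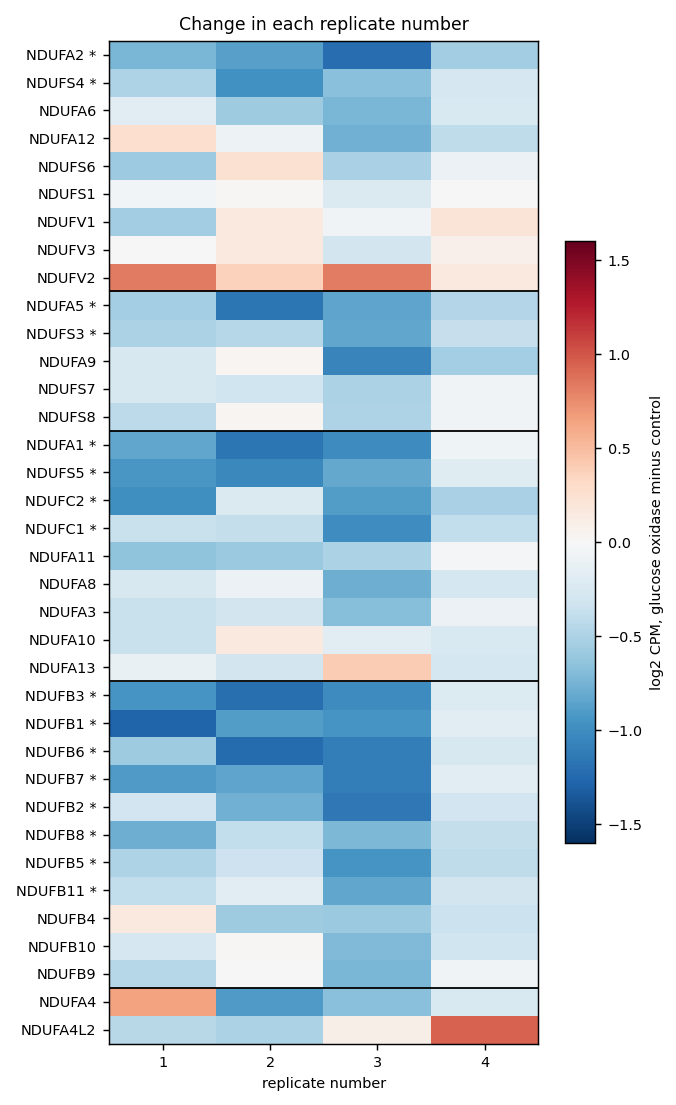
Log2 difference between the treated and the control library of the same replicate number (colour), for 36 tested subunit genes (rows) and pair (columns); an asterisk marks the 16 genes called lower in the blocked fit. The pair medians are -0.42, -0.33, -0.73 and -0.25; the deepest single drop is that of NDUFB1 in pair 1, at -1.28.

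The promoters of 4 members are shown: NDUFA2 and NDUFB3 because they had the largest drops, NDUFS3 because it is the core subunit that fell, and NDUFB4 because its window held the most NRF1 matches, though its change did not pass. Sequences are those of RefSeq on GRCh38.p14, from 250 bases before to 50 bases after the start of the gene as RefSeq places it, 5′ to 3′ on the strand of the gene; capitals mark letters that match a searched motif. The windows lie at chr5:140647581-140647880 on the minus strand for NDUFA2, chr2:201071751-201072050 on the plus strand for NDUFB3, chr11:47578824-47579123 on the plus strand for NDUFS3 and chr3:120596086-120596385 on the plus strand for NDUFB4.
NDUFA2: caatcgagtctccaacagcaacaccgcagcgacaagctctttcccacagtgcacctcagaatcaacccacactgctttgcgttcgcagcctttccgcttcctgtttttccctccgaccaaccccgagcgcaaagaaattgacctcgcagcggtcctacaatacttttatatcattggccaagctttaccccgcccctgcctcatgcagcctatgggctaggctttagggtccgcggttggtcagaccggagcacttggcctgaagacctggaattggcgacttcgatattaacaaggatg
NDUFB3: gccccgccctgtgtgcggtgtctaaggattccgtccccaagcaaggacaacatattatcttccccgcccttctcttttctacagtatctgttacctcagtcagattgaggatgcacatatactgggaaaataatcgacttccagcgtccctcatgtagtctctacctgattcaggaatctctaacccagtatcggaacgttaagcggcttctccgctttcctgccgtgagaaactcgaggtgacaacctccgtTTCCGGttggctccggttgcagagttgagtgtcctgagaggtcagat
NDUFS3: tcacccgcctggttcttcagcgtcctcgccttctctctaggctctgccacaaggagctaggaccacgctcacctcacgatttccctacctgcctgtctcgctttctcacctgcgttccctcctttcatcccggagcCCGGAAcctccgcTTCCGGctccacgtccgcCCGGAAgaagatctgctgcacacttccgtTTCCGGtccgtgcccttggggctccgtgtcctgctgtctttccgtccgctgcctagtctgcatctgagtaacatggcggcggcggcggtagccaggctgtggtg
NDUFB4: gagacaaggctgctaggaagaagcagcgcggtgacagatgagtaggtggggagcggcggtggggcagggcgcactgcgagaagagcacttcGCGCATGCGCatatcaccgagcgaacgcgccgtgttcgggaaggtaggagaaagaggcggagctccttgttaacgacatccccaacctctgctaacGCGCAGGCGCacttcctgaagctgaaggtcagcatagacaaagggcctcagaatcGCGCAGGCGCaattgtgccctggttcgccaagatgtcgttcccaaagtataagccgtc

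Windows were found for 32 of the 39 members and searched on both strands for 4 motifs of factors known to act on respiratory genes. A single window was taken per member. The set of all windows, given for comparison, holds several for some genes, so the shares are not of like sets. The NRF1 motif of nuclear respiratory factor 1 (GCGCA, any base, then GCGC) stood in 6 member windows (18.8%) and in 5.78% of all 35116 windows. All 3 matches in the NDUFB4 window are of this kind; the pair in NDUFA8 overlap each other. None of the 13 windows of genes that fell held them. The ETS core CCGGAA stood in 8 member windows (25.0%, against 17.2% of all windows), among them 4 of the 13, with 4 matches in NDUFS3 and 1 in NDUFB3. The YY1 letters AAGATGGC stood in 6 member windows (18.8%, against 2.89%), each time beginning 10 to 25 bases after the start base, and NDUFS4 was the 1 of the 13 that held them. The letters TCAAGGTCA, bound by oestrogen-related receptors, stood in 0 member windows and in 0.353% of all windows. The NDUFA2 window held none of the 4 motifs. No match overlapped a match of another motif, and a match describes letters only.

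For the calls in each module below, the share of all tested genes called lower was 6.97%. In the N module, where NADH is oxidised, NDUFA2 and NDUFS4 fell and the other 7 tested members did not pass. NDUFA2, an accessory subunit with a thioredoxin-like fold (ENSG00000131495, chr5:140638740-140647785, minus strand), had 67.0, 39.0, 122 and 129 CPM in treated libraries 1 to 4, against 111, 71.5, 284 and 189.6 CPM in control libraries 1 to 4. The treated library was the lower one in each pair, although treated 3 and 4 stood above controls 1 and 2. Its log2 change was -0.84 ± 0.15 (SE; edgeR adjusted p = 0.000523), and it also passed with the set term (edgeR adjusted p = 0.0183). NDUFS4, an accessory subunit that holds the N module to the rest of the arm (ENSG00000164258, chr5:53560633-53683340, plus strand), had 99.3, 50.6, 137 and 130.5 CPM in treated libraries 1 to 4, against 140.0, 99.4, 218 and 157 CPM in control libraries 1 to 4. All pairs were lower in treated cells, with treated 2 the lowest of the 8 libraries and control 3 the highest, and the groups overlap. Its log2 change was -0.60 ± 0.15 (SE; edgeR adjusted p = 0.00795), and without replicate 2 or with the set term it did not pass (edgeR adjusted p = 0.0801 with that term). NDUFA6, an LYR-motif protein that binds the acyl carrier protein, had 127, 71.2, 178 and 178 CPM in treated libraries 1 to 4, against 143, 106, 296 and 210.0 CPM in control libraries 1 to 4. Each pair was lower and the groups overlap; the change of -0.43 ± 0.15 (SE; edgeR adjusted p = 0.0530) just missed the threshold. NDUFV3, which sits beside the flavin subunit, had the change nearest to 0 in this module, with 35.9, 31.1, 35.0 and 40.2 CPM in treated libraries 1 to 4, against 36.0, 27.9, 42.8 and 38.2 CPM in control libraries 1 to 4. Its 8 libraries lay between 27.9 and 42.8 CPM and the pairs went both ways, at -0.01 ± 0.14 (SE; edgeR adjusted p = 0.958). NDUFS6, a zinc-binding subunit, and NDUFA12, which takes the place of assembly factor NDUFAF2, had changes of -0.24 and -0.25 and did not pass.

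The core subunits of the N module did not move in common. NDUFV1, which binds NADH and flavin mononucleotide (ENSG00000167792, chr11:67605653-67612554, plus strand), had 111, 126, 90.2 and 104 CPM in treated libraries 1 to 4, against 163, 113, 93.6 and 90.5 CPM in control libraries 1 to 4. Control 1 was the highest, the other 7 libraries lay close together, and the change was -0.06 ± 0.15 (SE; edgeR adjusted p = 0.837). NDUFS1, the largest iron-sulphur subunit (ENSG00000023228, chr2:206114817-206159603, minus strand), had 193, 175, 202 and 216 CPM in treated libraries 1 to 4, against 199, 173, 238 and 215 CPM in control libraries 1 to 4. The treated and control libraries covered much the same range and the pairs went both ways. NDUFS1 had a change of -0.06 ± 0.15 (SE; edgeR adjusted p = 0.826). NDUFV2, the iron-sulphur subunit beside NDUFV1 (ENSG00000178127, chr18:9102630-9134345, plus strand), had 3.30, 3.17, 2.02 and 1.89 CPM in treated libraries 1 to 4, against 1.81, 2.44, 1.11 and 1.68 CPM in control libraries 1 to 4. It was the only tested member with the treated library higher in all 4 pairs, yet the groups overlap and the change of 0.56 ± 0.27 (SE; edgeR adjusted p = 0.166) did not pass. With the principal-transcript length correction its adjusted p was 0.0749 in edgeR. Most of the principal transcript of NDUFV2 overlaps a second annotated gene. NDUFA7, also of this module, was at 0.252 to 0.579 CPM in treated libraries and 0.0961 to 0.692 CPM in controls and was not tested.

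In the Q module, where ubiquinone is reduced, NDUFA5 and NDUFS3 fell. NDUFS3 is a core subunit (ENSG00000213619, chr11:47565336-47584562, plus strand) and the only 1 of the 7 core members that fell; its promoter is shown above with 4 ETS cores. It had 100.5, 67.6, 164 and 170.3 CPM in treated libraries 1 to 4, against 143, 93.2, 289.9 and 220.1 CPM in control libraries 1 to 4. Treated libraries were lower in every pair, but treated 3 and 4 exceeded controls 1 and 2. The change was -0.54 ± 0.15 (SE; edgeR adjusted p = 0.0133), with an edgeR adjusted p of 0.0675 under the set term. NDUFA5, an accessory subunit on the flank of the matrix arm (ENSG00000128609, chr7:123536997-123558255, minus strand), had 102, 55.7, 201 and 193 CPM in treated libraries 1 to 4, against 149, 124, 362 and 267 CPM in control libraries 1 to 4. Each pair dropped and treated 2 was lowest of all, with the groups again overlapping. Its change was -0.75 ± 0.15 (SE; edgeR adjusted p = 0.00186), and it passed under the set term as well (edgeR adjusted p = 0.0280). By name, the table lists 12 pseudogenes of NDUFA5, whose similar sequence could take or give reads, so its level is uncertain. The same holds for NDUFB4, also with 12. Fewer are listed for some other members, among them NDUFB1, NDUFB2, NDUFB5, NDUFB8 and NDUFB11, which fell.

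The core subunits NDUFS7 and NDUFS8 had smaller changes. NDUFS7, which holds the last iron-sulphur cluster before ubiquinone (ENSG00000115286, chr19:1383527-1395589, plus strand), had 20.0, 18.4, 15.4 and 22.2 CPM in treated libraries 1 to 4, against 23.9, 23.1, 22.0 and 23.2 CPM in control libraries 1 to 4. All pairs were lower by small amounts, control libraries lay within a narrow band, and treated 4 lay inside that band. The change of NDUFS7 was -0.29 ± 0.14 (SE; edgeR adjusted p = 0.179). NDUFS8, an iron-sulphur subunit (ENSG00000110717, chr11:68030617-68036644, plus strand), had 78.5, 78.2, 56.3 and 69.6 CPM in treated libraries 1 to 4, against 105, 76.4, 79.1 and 72.2 CPM in control libraries 1 to 4. Control 1 was the highest, treated 3 the lowest, and the rest overlapped, with a change of -0.23 ± 0.14 (SE; edgeR adjusted p = 0.296). NDUFA9, which carries a bound nucleotide cofactor in a dehydrogenase-like fold, had 6.34, 7.92, 15.6 and 16.6 CPM in treated libraries 1 to 4, against 7.56, 7.75, 32.4 and 24.2 CPM in control libraries 1 to 4. Libraries 3 and 4 of both groups were far above libraries 1 and 2, and the change was -0.47 ± 0.17 (SE; edgeR adjusted p = 0.0585).

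In the near part of the membrane arm, 4 of 9 members fell: NDUFA1, NDUFS5, NDUFC2 and NDUFC1. NDUFA1, a small X-linked membrane protein needed for assembly (ENSG00000125356, chrX:119871487-119876662, plus strand), had 39.5, 16.5, 71.7 and 78.3 CPM in treated libraries 1 to 4, against 70.3, 36.9, 144 and 81.8 CPM in control libraries 1 to 4. Treated 1 to 3 were well below their controls whereas treated 4 was close to control 4, and the groups overlap. The change was -0.76 ± 0.16 (SE; edgeR adjusted p = 0.00220), and the edgeR adjusted p under the set term was 0.0714. NDUFS5, a disulphide-bonded subunit on the intermembrane face (ENSG00000168653, chr1:39026318-39034636, plus strand), had 124, 69.4, 266 and 268 CPM in treated libraries 1 to 4, against 237, 142, 469 and 306 CPM in control libraries 1 to 4. The pattern over pairs was like that of NDUFA1, with the smallest difference in pair 4. Its change was -0.74 ± 0.16 (SE; edgeR adjusted p = 0.00288), and the set term also gave a call (edgeR adjusted p = 0.0465). The 6 pseudogenes listed by name for NDUFS5 make its level uncertain. NDUFC2, a membrane subunit of the arm (ENSG00000151366, chr11:78068304-78080219, minus strand), had 13.7, 10.8, 25.0 and 23.0 CPM in treated libraries 1 to 4, against 27.3, 12.7, 46.4 and 32.9 CPM in control libraries 1 to 4. Every pair was lower and pair 2 the least so, at -0.67 ± 0.15 (SE; edgeR adjusted p = 0.00367). NDUFA13, also known as GRIM19, had the change nearest to 0 in this part of the arm, with 6.67, 5.14, 3.49 and 3.24 CPM in treated libraries 1 to 4, against 7.26, 6.33, 2.60 and 3.94 CPM in control libraries 1 to 4. Here libraries 1 and 2 of both groups were above libraries 3 and 4 and the change was -0.09 ± 0.21 (SE; edgeR adjusted p = 0.827); its sign turned with total-count scaling and with the principal-transcript length correction. NDUFC1 had a change of -0.53 ± 0.14 (SE; edgeR adjusted p = 0.0136). The other 4 (NDUFA3, NDUFA8, NDUFA10 and NDUFA11) had changes from -0.45 to -0.16 and did not pass.

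The far part of the membrane arm, also the largest module, held the most members that fell, 8 of 11, against 6.97% of all tested genes. These were NDUFB3, NDUFB1, NDUFB6, NDUFB7, NDUFB8, NDUFB2, NDUFB5 and NDUFB11. With the set term 5 of the 11 were lower, against 3.07% of all genes. With the principal-transcript length correction 5 were lower, against 6.13%. Differences between modules were not tested. NDUFB3, a small membrane-spanning subunit (ENSG00000119013, chr2:201071433-201085750, plus strand), had 55.2, 24.6, 96.8 and 101 CPM in treated libraries 1 to 4, against 107, 56.7, 195 and 118 CPM in control libraries 1 to 4. Treated 2 was the lowest library and control 3 the highest; pairs 1 to 3 were lower by a similar amount and pair 4 by less. The change was -0.85 ± 0.16 (SE; edgeR adjusted p = 0.000867), the deepest among the members, and the set term gave an edgeR adjusted p of 0.0445. NDUFB1, another small membrane subunit (ENSG00000183648, chr14:92116122-92121917, minus strand), had 25.3, 14.3, 31.6 and 33.5 CPM in treated libraries 1 to 4, against 61.6, 26.6, 60.8 and 37.6 CPM in control libraries 1 to 4. Treated 3 and 4 exceeded control 2, so the groups overlap, and pair 1 differed the most. NDUFB1 changed by -0.82 ± 0.16 (SE; edgeR adjusted p = 0.00111). In the authors' deposited table, its log2 fold change was -0.84 with an adjusted p of 0.459, the smallest of any member there. NDUFB6, a membrane-spanning subunit (ENSG00000165264, chr9:32552999-32573184, minus strand), had 69.9, 36.5, 149 and 164 CPM in treated libraries 1 to 4, against 104, 85.8, 320.5 and 195 CPM in control libraries 1 to 4. Each pair was lower, pair 4 the least, at -0.79 ± 0.16 (SE; edgeR adjusted p = 0.00190). NDUFB9, an LYR-motif protein at the tip of the arm (ENSG00000147684, chr8:124539101-124580648, plus strand), had 42.1, 43.0, 51.1 and 62.4 CPM in treated libraries 1 to 4, against 57.8, 42.9, 84.7 and 64.8 CPM in control libraries 1 to 4. Pair 2 was level and pair 3 the furthest apart, and the change of -0.31 ± 0.15 (SE; edgeR adjusted p = 0.158) was the nearest to 0 in the far arm. Of the remaining genes that fell, NDUFB7, which is disulphide-bonded on the intermembrane face, changed by -0.76, NDUFB2 by -0.63, NDUFB8 by -0.57, NDUFB5 by -0.55 and NDUFB11 by -0.42. NDUFB11 lay at the threshold, with an edgeR adjusted p of 0.0497, and lost its call in 3 of the 4 fits that left out a pair. NDUFB4 and NDUFB10 had changes of -0.34 and -0.32 and did not pass.

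Of the 3 members outside complex I, none fell. NDUFA4, the complex IV protein (ENSG00000189043, chr7:10931951-10940256, minus strand), had 138, 73.6, 218 and 237 CPM in treated libraries 1 to 4, against 87.8, 138, 346 and 281 CPM in control libraries 1 to 4. Pair 1 was higher in treated cells and the other pairs were lower, at -0.30 ± 0.19 (SE; edgeR adjusted p = 0.302). NDUFA4L2, a target of hypoxia-inducible factor in other cells (ENSG00000185633, chr12:57234903-57240715, minus strand), had 3.54, 3.82, 0.420 and 1.47 CPM in treated libraries 1 to 4, against 4.84, 5.46, 0.387 and 0.721 CPM in control libraries 1 to 4. Libraries 1 and 2 of both groups stood above libraries 3 and 4 and the treated and control ranges overlap, with a change of -0.09 ± 0.29 (SE; edgeR adjusted p = 0.871). NDUFC2-KCTD14 was counted in 2 libraries only, at 0.193 CPM in treated 4 and 0.0393 CPM in control 2, and at 0 in the others.

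By role, 1 of the 7 catalytic core members fell (median log2 change -0.14) and 15 of the 28 tested accessory subunits of the complex did (median -0.50), against 6.97% of all genes; 1 call in a list of 7 is near that share. NDUFAB1, outside the name pattern, is not among the 28. The difference between these classes was not tested, and they also differ in length: the annotated exons sum to a median of 4523 bases in core genes and 1915 bases in accessory genes, against 4325 bases over all tested genes. Length went with the change across the whole table. Over 17413 genes the median log2 change was -0.19 in the length class (of 10 equal ones) with the shortest genes and 0.18 in the class with the longest. Spearman's rho between length and change was 0.27 across all genes, with 0.24, 0.30, 0.21 and 0.01 in pairs 1 to 4, and 0.46 across the 37 members; these are descriptions over genes, which share libraries and are not replicates. In each of the 9 length classes that hold members, the members' median was below that of all genes in the class, for example -0.74 against -0.19 in the shortest and -0.55 against 0.04 in the seventh, which holds NDUFB5 alone.

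Corrected for gene length in each library, the blocked edgeR fit called 17 members lower and 0 higher against backgrounds of 6.80% and 5.85%, and the members' median was -0.30. Of these 17, 15 were among the 16; NDUFB11 was lost (adjusted p = 0.204 in edgeR), while NDUFA9 and NDUFA11 were gained. A correction for the length of the principal transcript, which leaves out alternative exons, called 11 members lower and 0 higher against backgrounds of 6.13% and 5.24%, with a median of -0.29. These 11 comprised 10 of the 16 and NDUFA9. NDUFS3, NDUFS4, NDUFB5, NDUFB8, NDUFB11 and NDUFC1 did not pass with that correction, so no catalytic core member did (edgeR adjusted p = 0.0875 for NDUFS3).

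**Figure D3:**
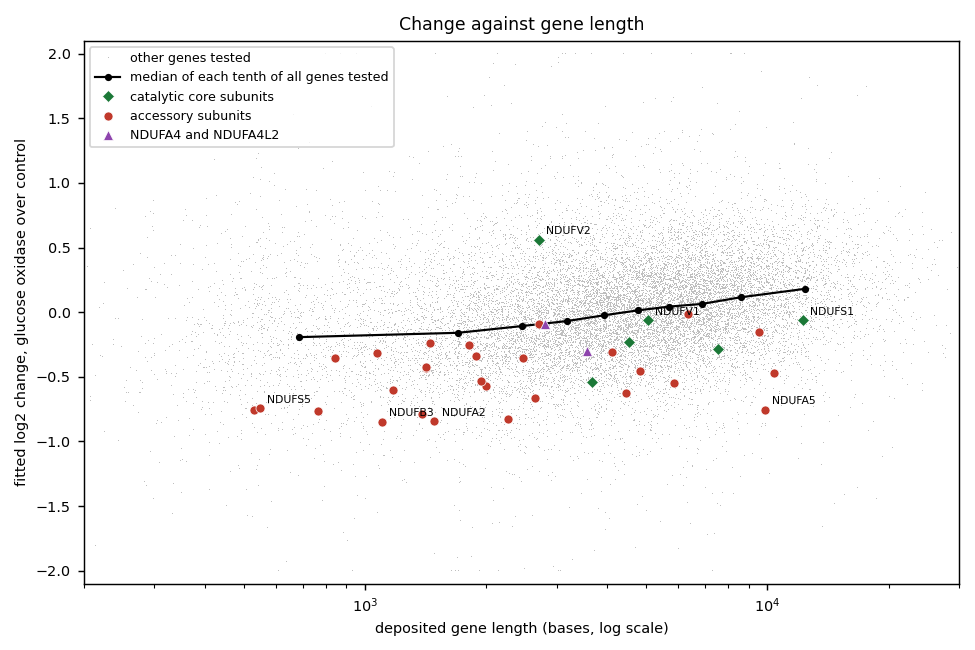
Log2 change with the replicate block (y axis) against summed exon length in bases (log x axis); grey dots are all tested genes, with values beyond 2 in either direction drawn at the edge, and coloured dots 36 subunit genes. The line joins the medians of 10 classes of all genes by length, which run from -0.19 to 0.18, and most subunit genes lie below it.

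Levels of most members also followed the division of the replicates, in treated and control cells alike. In treated cells 27 of 37 members (73.0%) had both libraries 3 and 4 above both libraries 1 and 2, against 30.9% of all genes; in control cells 26 (70.3%) did, against 33.0%. The median difference of the members was 0.68 log2 units in treated and 0.70 in control cells. Members with the opposite order in both groups were NDUFA13, NDUFA4L2, NDUFV1 and NDUFV2, and 24 were higher in libraries 3 and 4 of both. The median change with glucose oxidase was -0.33 within replicates 1 and 2 and -0.51 within replicates 3 and 4. No member's change differed between these sets in edgeR's interaction test (0 of 37 called, adjusted p from 0.531 to 0.997, 3 at an unadjusted p below 0.05; background 0.230%), and DESeq2 called 0 as well.

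**Figure D4:**
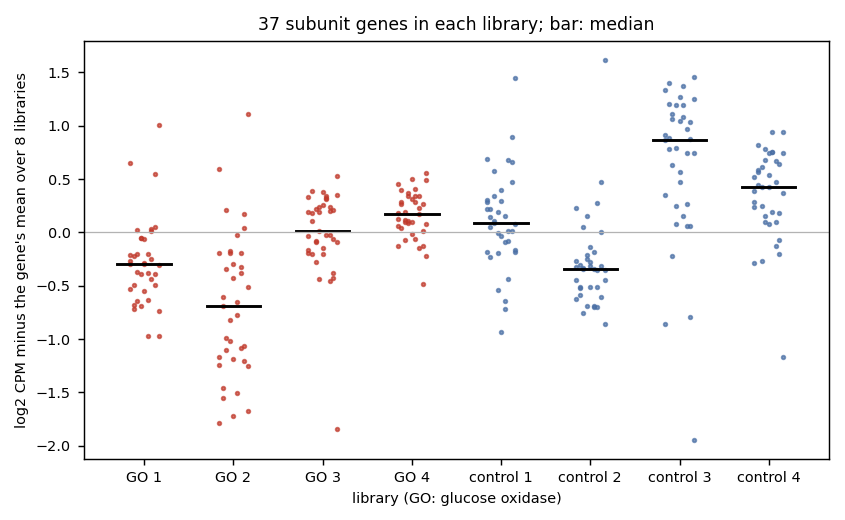
Level of the 37 tested subunit genes (dots) in each library, as log2 CPM from each gene's mean over the 8 libraries (y axis). Treated libraries stand left of controls, and a black bar marks the median of each library. The median of the treated library is lower in each pair (for example 0.01 in treated 3 and 0.86 in control 3). Medians of libraries 1 and 2 of each group lie below those of libraries 3 and 4.

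Per length, the members differed over a wide range. On the deposited FPKM scale NDUFB7 was at 342 ± 111 FPKM in treated and 584 ± 214 FPKM in control cells and NDUFS5 at 329 ± 185 FPKM in treated and 525 ± 264 FPKM in control cells (mean ± SD, n = 4 each), the highest levels in controls. The SDs of these 2 genes overlap. At the low end NDUFV2 was at 0.940 ± 0.260 FPKM in treated and 0.637 ± 0.182 FPKM in control cells and NDUFA7 at 0.247 ± 0.107 FPKM in treated and 0.279 ± 0.216 FPKM in control cells, although NDUFV2 encodes a core subunit present in the complex beside NDUFV1, which was at 20.9 ± 2.54 FPKM in treated and 22.4 ± 6.19 FPKM in control cells. The annotation of these low genes overlaps that of others. In GENCODE 29, 82.9% of the bases of the principal NDUFV2 transcript are shared with a second gene on the same strand, AP005263.1, which was counted at 0 in all 8 libraries. Shared on the same strand were also 75.9% of NDUFA7, 71.7% of NDUFB8, 67.0% of NDUFA11, 44.1% of NDUFA13 and 100% of NDUFC2-KCTD14. For NDUFA7, NDUFB8 and NDUFA11 the second gene had at most 7 counts in any library, whereas YJEFN3, 1 of the 2 genes that overlap NDUFA13, had 118 to 293 counts in treated and 68 to 269 in control libraries. These 6 members, all with 40% or more shared, had a median control level of 1.23 FPKM, against 24.6 FPKM for the other 33. Among the 6, NDUFB8 was not low, at 18.2 FPKM in control cells. Control levels were also low with little or no such overlap, at 1.73 FPKM for NDUFA9 (11.75% shared), 3.02 for NDUFS7 (0%) and 0.986 for NDUFA4L2 (0%). FPKM divides by all annotated exons, 4839 bases for NDUFA11, whose principal transcript has 539. The part of overlap or length in the low levels was not tested. Levels of the 6 overlapped members are uncertain, and so are their changes, NDUFB8 included. Counted on either strand, overlaps also cover 83.4% of NDUFB2, 45.8% of NDUFB11 and 44.5% of NDUFA1, all 3 among the genes that fell. Their levels were not low, at 36.2 ± 11.8 FPKM in treated and 57.4 ± 25.7 FPKM in control cells for NDUFB2, 44.6 ± 8.40 FPKM in treated and 61.7 ± 21.0 FPKM in control cells for NDUFB11 and 66.5 ± 37.8 FPKM in treated and 108 ± 60.9 FPKM in control cells for NDUFA1 (mean ± SD, n = 4 each). Neither the strand setting nor the handling of reads in shared bases is stated. Counts of these genes may therefore lack such reads or hold reads of the opposite gene.

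**Figure D5:**
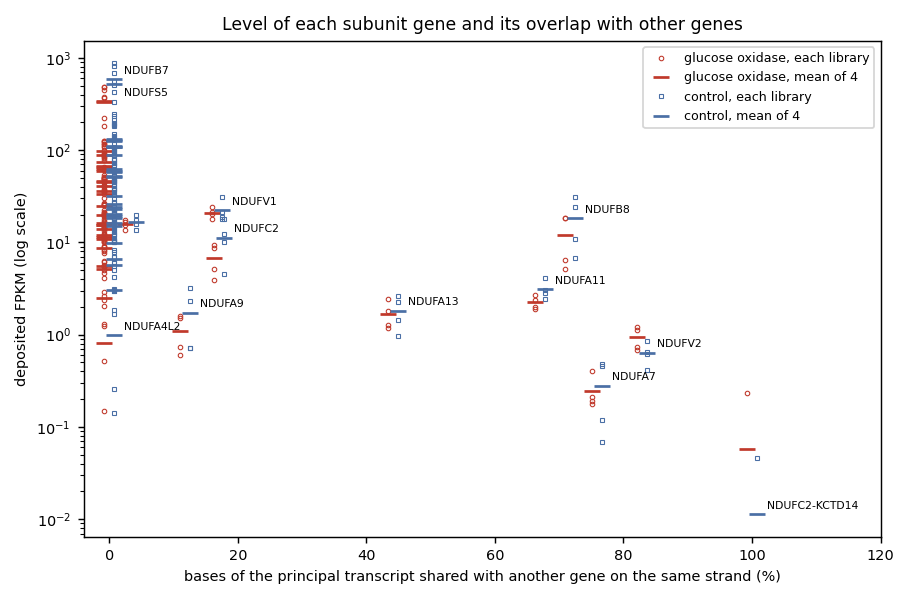
Deposited FPKM (log y axis) of 38 subunit genes against the percentage of its principal transcript that overlaps another gene on the same strand (x axis). Small open symbols are libraries and bars the means of 4, treated in red left of control in blue; a library at 0 FPKM cannot be drawn on the log axis, and NDUFV2, NDUFA7, NDUFA11 and NDUFA13 lie low at the right.

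Other genes of the pathway were counted in the same blocked fit, where 6.97% of all genes were lower and 7.51% higher. Of 18 tested genes in the assembly factor list, which includes the subunit NDUFAB1, 2 were lower and none higher, near the share over all genes. The median change of the list was -0.21 log2 units. The assembly factor NDUFAF8 changed by -0.51 and NDUFAB1 by -0.46 (edgeR adjusted p = 0.0264 and 0.0319). Of the 7 complex I subunits encoded in mitochondrial DNA, 1 was higher and 0 lower. This was MT-ND4L, at 182, 241, 259 and 224 CPM in treated libraries 1 to 4, against 40.2, 143, 246 and 204 CPM in control libraries 1 to 4. Control 1 stood far below the rest, and the change was 0.76 ± 0.22 (SE; edgeR adjusted p = 0.0224). The median of the 7 was 0.44, made up of pair medians of 1.40, 0.71, -0.07 and -0.19, so the median was above 0 in pairs 1 and 2 and below it in pairs 3 and 4. MT-ND3 and MT-ND6 had changes of -0.30 and -0.015. Among 8 tested regulators of mitochondrial genes, 2 coactivators were higher, PPARGC1B by 0.63 and PPRC1 by 0.45 (edgeR adjusted p = 0.0274 and 0.0458), and 0 were lower. Neither passed with the gene length correction, and with the principal-transcript correction 0 regulators were higher and 1 lower. Of 38 nuclear subunits of complexes II to V, 21 were lower and none higher (median -0.48). Those with the smallest adjusted p were the cytochrome oxidase subunits COX6C (-0.85) and COX7A2 (-0.80) and the ATP synthase subunit ATP5ME (-0.85). With the set term, where 3.07% of all genes were lower and 3.72% higher, the counts were 0 assembly factors, 0 mitochondrial subunits and 0 regulators in either direction, and 6 subunits of complexes II to V lower. Without the block 0 genes of these lists were called.

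In the authors' deposited table, made with DESeq2, all 39 members were listed and 37 had a log2 fold change below 0. None had an adjusted p below 0.05 in that table, where 0.109% of its 36644 genes were lower and 0.0982% higher at that threshold, and 2 members had an unadjusted p below 0.05.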

How the data were processed

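RNA-seq counts of 8 SV-HUC1 cultures were analysed, 4 in each group. The submitters' processing notes name HISAT2 2.0.5 as a tool of the authors, with featureCounts 1.5.0-p3 and DESeq2 1.20.0, and the build GRCh38.p13. Whether the authors counted by strand is not stated there, so reads of overlapping genes, on either strand, may not have been told apart. The deposited counts are whole reads per gene, not normalised. The deposited FPKM values are scaled to length by the authors. The authors' deposited comparison table gives group means of size-factor-normalised signal, log2 fold changes and p-values.

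Counts were fitted with edgeR 4.0.16 (R 4.3.3; quasi-likelihood, TMM, filterByExpr, Benjamini-Hochberg adjusted p below 0.05 over all tested genes), with the group as the only term, and with the replicate number as a block. CPM values are TMM-normalised. Same-number libraries of both groups deviated together from their group means (correlations of log2 CPM, prior count 2, across genes: 0.532, 0.678, 0.590 and 0.503, all over the minimum of 0.1), so the blocked values are given; the labels do not say that equal numbers mark the same experiment. Treated library 4 and control library 3 correlated at 0.652, so pairing by number is not separated from the division into replicates 1 and 2 and replicates 3 and 4. Length corrections subtracted, per library, a natural spline (5 degrees of freedom) of log2 CPM deviation on log2 length, entered as an offset. DESeq2 1.42.0, total counts, RLE size factors, no low-count filter and leave-one-out fits were alternatives. The fits were tested on simulated data. Pairing by number was built into the simulation, so it cannot say whether equal numbers pair the libraries. The labels call the 4 libraries of each group biological replicates.

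The members and lists were chosen with earlier results of these data known. Values per library are given for the core subunits, in each other module for the 3 members of smallest adjusted p with the block and the 1 nearest to 0, and for NDUFA4, NDUFA4L2 and NDUFC2-KCTD14; in the other lists up to 3 called genes are named. Gene lengths, coordinates and overlaps are those of GENCODE 29, whose identifiers equal those of the table. One member is counted in the totals but not reported here by name.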

Additional observations from a re-analysis of the deposited data

Results flagged for a closer look

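NDUFA10 was lowest in control 2, at 78.6 CPM, where the other 3 controls lay between 99.0 and 101 CPM. NDUFS6 was also lowest in control 2, at 18.8 CPM, against 31.1 to 32.6 CPM in the other 3. In both genes the gap to the nearest control was 0.892 of the range of the 4 libraries, above Dixon's critical value. Chance flags about 1 in 20 groups, and 74 groups of 4 libraries were looked at.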

How the results depend on the processing

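The number of members called lower moved from 0 without the block to 16 with the replicate block, and 0 members were called higher under any setting run. With the block, where 6.97% of the 17413 tested genes were lower, the count was 15 with no filter on low counts (2.45% of 39774 genes). It was 14 with total counts (3.07%), 18 with RLE size factors (7.63%) and 17 with the gene length correction (6.80%), each over the 17413 genes. It was 11 with the principal transcript length correction (6.13% of the same genes) and 17 with DESeq2 (8.69% of 14965 genes with an adjusted p). It was 9 when a set term (replicates 1 and 2, or 3 and 4) replaced the block (3.07%). Leaving out 1 replicate pair in turn gave 10 to 16, the lowest without replicate 3, where the share of all genes was lowest too, at 2.85%. Without the block the count stayed at 0 under total counts, RLE size factors, no filter, DESeq2 and each library left out. The median log2 change of the members was below 0 in all settings run, from -0.60 without control 2 to -0.26 without control 3. Total counts moved the split of all genes called with the block to 535 lower and 1675 higher, against 1213 lower and 1308 higher with TMM. The cause of these moves was not tested. With 4 libraries a group, members at a few CPM (NDUFV2, NDUFA13, NDUFA4L2) are measured the least precisely. Counting intervals and replicate spread do not cover reads lost to overlapping genes.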
